A study of Mus musculus with 10 samples.

Results

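The data compared here were the transcriptomes of mouse leukemia cells treated with MM-401 and of the same cells treated with iBET, set directly against each other with no control library in the ratio. The comparison took in 4 libraries, 2 of MM-401 and 2 of iBET, of the 10 libraries in the series, and 12064 of 24015 counted genes had enough reads in them to be tested. All libraries came from MAF9 cells, which are C57BL/6 mouse bone marrow cells made leukemic by transduction with the MLL-AF9 fusion gene and grown with the cytokine IL-3. Each group was treated for 4 days, with MM-401 or with iBET at the IC50 of the compound, so by the labels the cells of both groups carried MLL-AF9 and differed in the compound. The remaining 6 libraries were 2 each of the DMSO vehicle, of EPZ and of MI-2. Doses in concentration units were not given, and 1 transduced cell culture system was used throughout. The study's methods call the libraries of a group biological duplicates, and the labels do not say whether these were separate cultures, so p-values measure the spread between the libraries and no more.

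MM-401 is a small molecule that blocks the interaction of the histone methyltransferase MLL1 with WDR5 and so the assembly of the wild-type MLL1 complex, which methylates histone H3 at lysine 4. iBET occupies the acetyl-lysine pockets of the BET proteins, which otherwise hold the elongation factor P-TEFb and other coactivators at acetylated enhancers and promoters. EPZ inhibits the H3 lysine 79 methyltransferase DOT1L and MI-2 the binding of MENIN to MLL. MLL-AF9 leukemia cells resemble granulocyte and macrophage progenitors held short of maturation, and their further maturation is followed by granule proteins, surface receptors and lysosomal enzymes.

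The 4 libraries held from 21875517 to 25401181 reads assigned to genes. The 8 markers of the transduced progenitors (Ptprc, Itgam, Kit, Csf2rb, Mpo, Elane, Hoxa9 and Meis1) were all detected in every one of the 4, at 15.2 CPM or more, CPM being reads of the gene scaled by the library total and the TMM factor, the scale of every level given here. Within a group, the correlation over log2 levels was r = 0.992 between the MM-401 libraries and r = 0.991 between the iBET libraries, across genes, which are not independent replicates. Among genes at 1 CPM or more, 1.37% differed by more than 2-fold between the MM-401 libraries and 1.64% between the iBET libraries. The DMSO libraries, which enter no ratio here, differed from each other many-fold in several of the genes described (Mpo at 399 and 4980.2 CPM, Itga6 at 221 and 25.0 CPM), and their levels are given for orientation without a test.

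Of the 12064 genes, 4223 (35.0%) were called at an adjusted p under 0.05 in edgeR's quasi-likelihood test, 2103 of them (17.4%) higher with MM-401 and 2120 (17.6%) higher with iBET. Past 8-fold stood 230 called genes higher with MM-401 and 24 higher with iBET, and past 16-fold 106 and 3. Of the called genes, 319 had an iBET mean, and 55 an MM-401 mean, under 0.436 CPM, the level that corresponds to the read minimum of the test, so these entered it through the higher group and had to differ. Among called genes with a mean of 5 CPM or more over the 4 libraries, 70 were past 8-fold higher with MM-401 and 4 higher with iBET. Counted without a test, 904 genes were past 2-fold higher with MM-401 and 546 with iBET when the higher group reached 1 CPM, and 529 and 419 when it reached 5 CPM. Both libraries of a group stood above both of the other in all 4223 called genes and in 72.0% of all genes tested. The number of calls was 1484 when all 10 libraries shared the estimate of the spread. Counts given below with 1 library left out take the spread from the other group alone, so they do not tell which library the calls rest on.

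**Figure D1:**
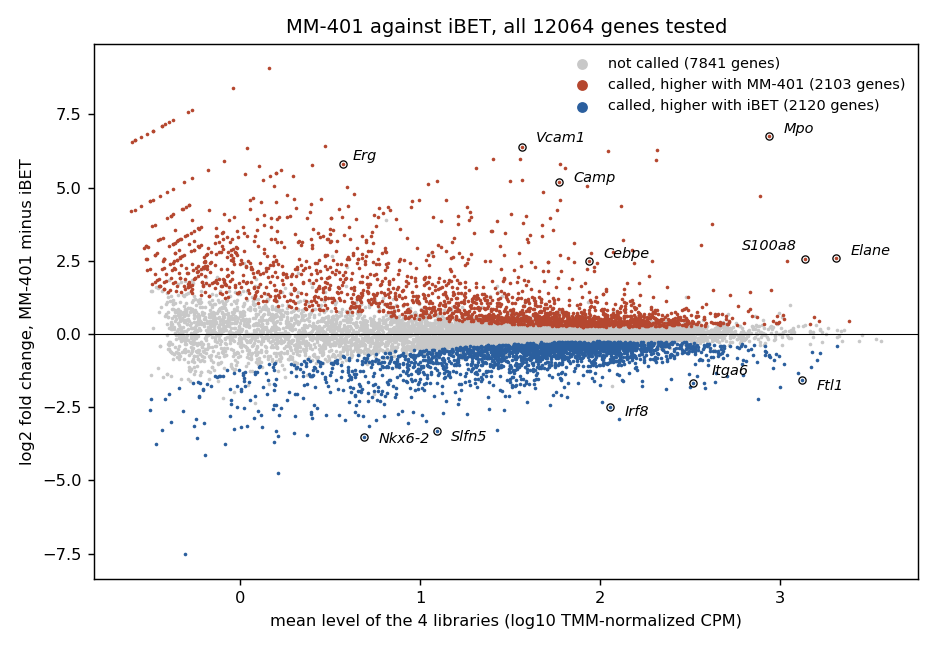
Each point is a gene, with the mean level of the 4 libraries on the x axis (log10 of TMM-normalized CPM) and the log2 fold change of MM-401 over iBET on the y axis. Mpo, Vcam1 and Camp lie far above the cloud at log2 fold changes of 6.76, 6.40 and 5.19, while Nkx6-2, the lowest of the circled genes, lies at -3.52. Lines of points at the upper left are genes with few reads in iBET, whose fitted fold changes depend on the prior count.

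The gene lists described next were written for hematopoietic cells and for these inhibitors. In each, a member is called as above, the log2 fold change is MM-401 minus iBET with its standard error (SE), and the shares of all genes called in a direction, 17.4% and 17.6%, are the background against which a list's count is read. A count near these shares is not read as a result about the list. Called members with a group mean under 0.436 CPM entered the test through the other group and had to differ, and the counts include them.

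**Figure D2:**
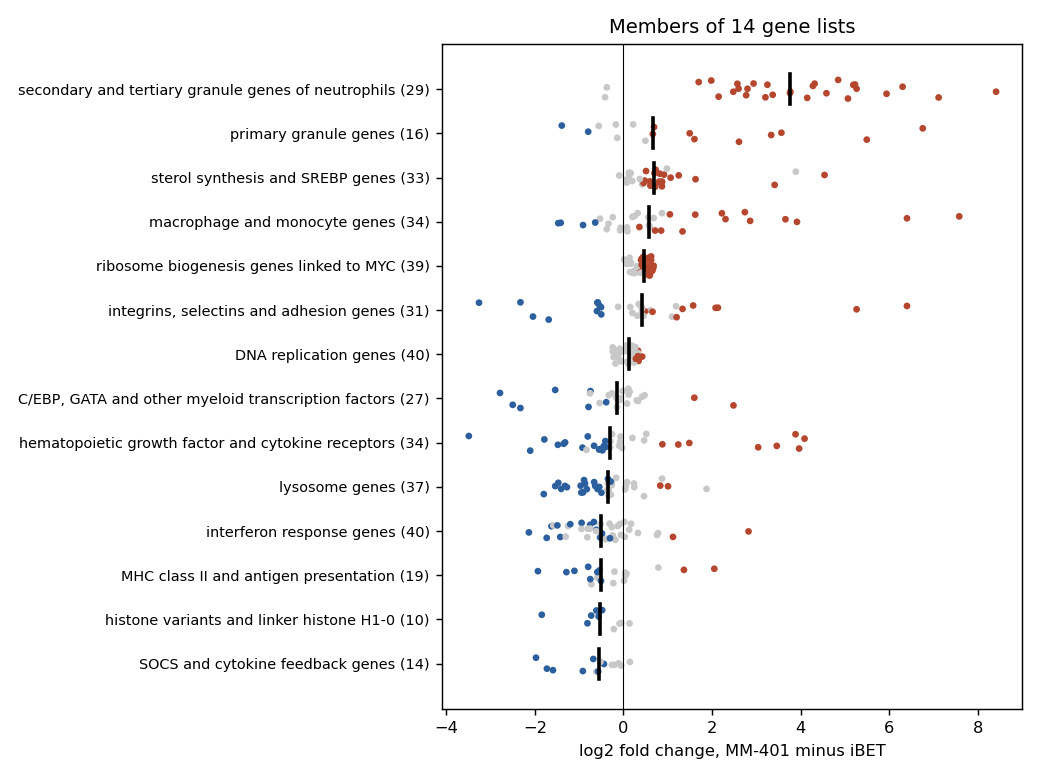
Each point is a tested member of the list named at the left, with the number tested in parentheses, placed by its log2 fold change of MM-401 over iBET; red and blue points are members called higher with MM-401 and with iBET, grey points were not called, and black bars are list medians. Medians run from 3.76 for the secondary and tertiary granule genes to -0.55 for the SOCS genes.

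Most neutrophil granule genes tested were higher with MM-401, and the secondary and tertiary granule list had the largest median of all lists with more than 1 tested member. Primary granules are made at the promyelocyte stage and carry peroxidase and serine proteases, and Mpo, the myeloperoxidase gene, stood at 1330.0 and 2115 CPM with MM-401 and 15.2 and 16.6 CPM with iBET (log2 fold change 6.76 ± 0.28, edgeR adjusted p = 0.000201). Mpo had the largest change of the called genes that reached 5 CPM in MM-401 or in iBET. EPZ gave 173 and 379.8 CPM and MI-2 20.2 and 53.8 CPM. Elane, neutrophil elastase, was also higher with MM-401, at 3798 and 3299 CPM against 777 and 387 CPM (log2 fold change 2.61 ± 0.32, edgeR adjusted p = 0.00266), where DMSO gave 4337 and 4144 CPM. Prss57, a serine protease of the same granules, was at 84.7 and 89.6 CPM against 9.43 and 7.88 CPM (log2 fold change 3.34 ± 0.12), and Cst7, the cysteine protease inhibitor cystatin F, at 109 and 94.1 CPM against 8.18 and 8.90 CPM (3.57 ± 0.12). For each of these 4 genes the MM-401 and iBET libraries did not overlap, and each was called in all 13 alternatives.

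Not all primary granule genes followed. Of 16 tested members of that list, 9 were higher with MM-401, 2 were higher with iBET and 5 were not called. Ctsg, cathepsin G, was at 3183 and 3284 CPM against 3739 and 3547 CPM (log2 fold change -0.17 ± 0.11, edgeR adjusted p = 0.2798), and Prtn3, proteinase 3, at 2045 and 1948 CPM against 1885 and 1546 CPM (edgeR adjusted p = 0.237), so neither protease was called while Elane, whose product sits in the same granule, was. The members higher with iBET were Ctsc, the dipeptidyl peptidase that activates the granule proteases, at 78.0 and 63.3 CPM against 204 and 167 CPM (log2 fold change -1.39 ± 0.14, edgeR adjusted p = 0.00163), and the lysozyme gene Lyz2 (640.4 and 652 CPM against 1063 and 1181 CPM, log2 fold change -0.80 ± 0.10), whose reads may be shared with its near copy Lyz1. Srgn, the proteoglycan core on which granule proteins are packed, was higher with MM-401 (1245 and 1399 CPM against 447 and 491 CPM, log2 fold change 1.50 ± 0.11).

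Secondary and tertiary granules appear later in the lineage and hold antimicrobial proteins, metal-binding proteins and gelatinase. Of 29 tested members of this list, 27 were higher with MM-401, none was higher with iBET, and 2, Mmp8 and Anxa1, were not called. The list median was 3.76, and 3.54 with the 2 members that had no read with iBET held at their bound. Camp, the cathelicidin precursor, was at 98.0 and 132 CPM with MM-401 and 3.08 and 3.19 CPM with iBET (log2 fold change 5.19 ± 0.19, edgeR adjusted p = 0.000168). Itgb2l, an integrin beta chain gene of neutrophils, was at 65.9 and 77.5 CPM against 2.44 and 1.34 CPM (log2 fold change 5.26 ± 0.25) and Olfm4, olfactomedin 4, at 75.8 and 109.7 CPM against 3.59 and 2.88 CPM (4.85 ± 0.23). In all 3 genes both MM-401 libraries were far above both iBET libraries and far below the EPZ and MI-2 libraries.

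Ltf, lactoferrin, which binds iron, was at 61.2 and 87.0 CPM against 8.78 and 5.63 CPM (log2 fold change 3.37 ± 0.26, edgeR adjusted p = 0.000831), and Lcn2, which binds bacterial siderophores, at 90.7 and 108 CPM against 33.2 and 11.9 CPM (log2 fold change 2.15 ± 0.42). S100a8 and S100a9, the subunits of calprotectin, were at 1951 and 2789 CPM against 541 and 256 CPM (2.57 ± 0.37) and at 1658 and 2071 CPM against 507 and 161 CPM (2.48 ± 0.50). The iBET libraries of S100a9 lay further apart than those of Camp, and its edgeR adjusted p was 0.0123. Stefin A family genes, which encode cysteine protease inhibitors, had some of the largest changes, with Stfa1 at 253 and 566 CPM against 6.94 and 3.55 CPM and Stfa2 at 48.4 and 75.3 CPM against 2.07 and 1.26 CPM. Stfa1, Stfa2, Stfa3, Stfa2l1, Gm5483, BC100530 and BC117090 are near copies of each other, and how the counting divided their reads is uncertain. Those of them in the list enter its counts and its median as separate members. BC117090 had 84 reads with MM-401 and 0 with iBET, at least 28.7-fold higher against a floor of 3 reads over the group.

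Levels of the whole list, summed over its members, ran from 6406 to 8800.4 CPM with MM-401 and from 697 to 1503 CPM with iBET, beside 1585 to 5110.4 CPM with DMSO, 65722 to 92755 CPM with EPZ and 59246 to 62892 CPM with MI-2. On this sum the MM-401 and iBET libraries did not overlap, and the EPZ and MI-2 libraries were above both. The samples are bulk cultures, so fewer cells at a granulocytic stage and less of these RNAs in each cell cannot be told apart.

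**Figure D3:**
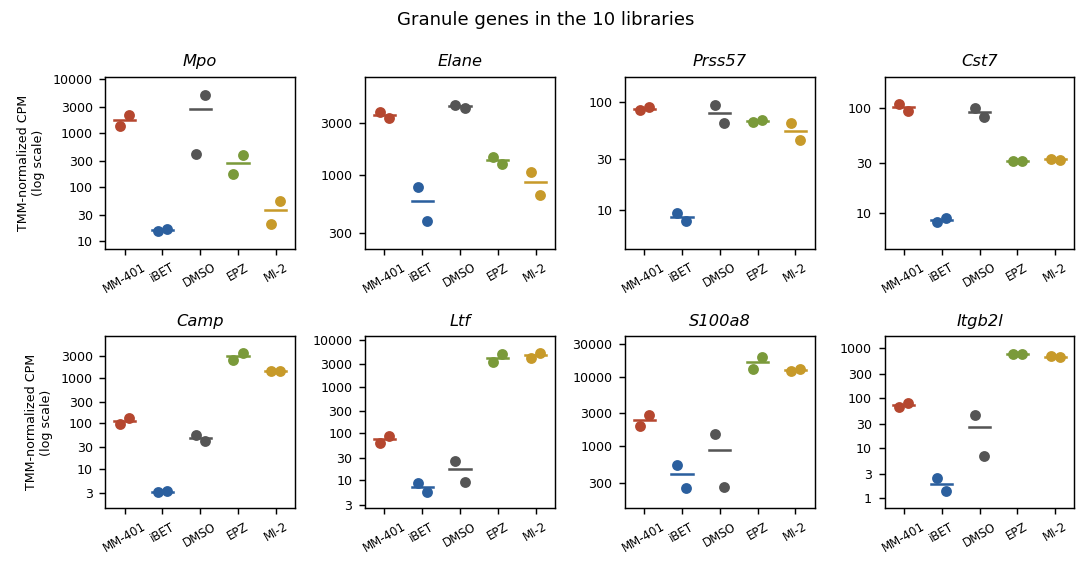
Each panel gives a granule gene in the 10 libraries as TMM-normalized CPM on a log axis, points being libraries and bars the mean of the 2 libraries of a group. In all 8 panels both MM-401 libraries lie above both iBET libraries; in Camp, Ltf, S100a8 and Itgb2l the EPZ and MI-2 libraries lie higher still.

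Granule genes are known targets of C/EBP factors, and their proximal promoters were searched for the C/EBP core TTGCNNAA on either strand. RefSeq holds 26 promoters of 25 members, and 9 of them (34.6%) held a match in the 250 bases before the start, against 9.56% of all 32851 RefSeq promoters. Members with a match included the uncalled Mmp8 and Anxa1. For the primary granule list it was 4 of 18 promoters, those of Plac8, Lyz1 and Rnase6, none of which was called, while Mpo and Elane held no match in this window. Promoters of 3 genes higher with MM-401 are shown, each read 5′ to 3′ on the strand of the gene in build GRCm38.p6, with the match in capitals: Ngp on the plus strand at chr9:110419558-110419807, Ltf on the plus strand at chr9:111019042-111019291 and S100a9 on the minus strand at chr3:90695722-90695971.
Ngp: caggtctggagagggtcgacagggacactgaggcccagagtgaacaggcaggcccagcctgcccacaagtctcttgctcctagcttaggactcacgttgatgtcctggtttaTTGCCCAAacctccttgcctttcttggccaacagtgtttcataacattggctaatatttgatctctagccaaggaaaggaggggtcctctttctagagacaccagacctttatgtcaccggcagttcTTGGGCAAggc
Ltf: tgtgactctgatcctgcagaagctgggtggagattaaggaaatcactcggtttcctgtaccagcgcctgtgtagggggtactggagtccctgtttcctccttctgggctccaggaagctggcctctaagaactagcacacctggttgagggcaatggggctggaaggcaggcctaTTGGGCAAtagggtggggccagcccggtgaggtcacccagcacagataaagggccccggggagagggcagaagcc
S100a9: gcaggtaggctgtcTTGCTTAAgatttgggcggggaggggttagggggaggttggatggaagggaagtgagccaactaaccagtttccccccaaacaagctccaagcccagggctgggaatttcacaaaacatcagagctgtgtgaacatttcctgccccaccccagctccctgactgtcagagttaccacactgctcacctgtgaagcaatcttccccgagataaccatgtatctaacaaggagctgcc
The matches begin 138 and 11 bases before the start of Ngp, 75 before that of Ltf and 236 before that of S100a9. Ngp, a neutrophil granule protein gene, was at 742 and 829.7 CPM against 78.8 and 37.6 CPM (log2 fold change 3.76 ± 0.34).

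Among the factors that direct these lineages, Cebpe, which drives the promyelocyte to myelocyte step and secondary granule genes, was at 136 and 158 CPM with MM-401 and 32.6 and 20.05 CPM with iBET (log2 fold change 2.48 ± 0.22, edgeR adjusted p = 0.00120). DMSO gave 111 and 112 CPM. Irf8, which favors the monocyte and dendritic lineages over the neutrophil lineage, went the other way, at 36.4 and 31.8 CPM against 137 and 249 CPM (log2 fold change -2.50 ± 0.28, edgeR adjusted p = 0.00202), and its iBET libraries were above all 8 others. Klf2, a quiescence-linked factor, and Irf5 were likewise higher with iBET, at 15.4 and 10.7 CPM against 79.9 and 51.4 CPM and 12.5 and 8.28 CPM against 25.9 and 34.6 CPM (log2 fold changes -2.33 ± 0.26 and -1.54 ± 0.24). Zfpm1, the GATA cofactor FOG-1, was at 1.66 and 1.52 CPM against 13.7 and 8.35 CPM (log2 fold change -2.79 ± 0.31, edgeR adjusted p = 0.00206). Of 27 tested myeloid factors 2 (7.41%) were higher with MM-401 and 7 (25.9%) with iBET, beside 17.4% and 17.6% of all genes. In the fit of all 10 libraries the counts were 2 and 3. Gfi1, the granulocytic repressor, was at 509 and 590.1 CPM against 475 and 347 CPM (edgeR adjusted p = 0.0925), and Spi1, encoding PU.1, at 265 and 307 CPM against 218 and 238 CPM (edgeR adjusted p = 0.0523); neither was called. Among 17 ETS factors, 2 (11.8%) were higher with MM-401 and 3 (17.6%) with iBET. Erg had by far the largest change, at 8.17 and 6.59 CPM against 0.138 and 0.118 CPM (log2 fold change 5.80 ± 0.36, edgeR adjusted p = 0.000464). Its iBET mean was under 0.436 CPM, so it entered the test through MM-401 and had to differ. Ets1 was at 153 and 169 CPM against 62.2 and 49.9 CPM (log2 fold change 1.52 ± 0.13).

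Macrophage and monocyte genes called were mostly higher with MM-401. Of 34 tested, 14 (41.2%) were higher with MM-401, 4 (11.8%) with iBET and 16 were not called, beside 17.4% and 17.6% of all genes. Those higher with MM-401 included receptors: Vcam1, an adhesion receptor, at 54.5 and 90.6 CPM with MM-401 and 1.15 and 0.591 CPM with iBET (log2 fold change 6.40 ± 0.38, edgeR adjusted p = 0.000464), Mrc1, the mannose receptor, at 12.9 and 14.8 CPM against 0.966 and 0.867 CPM (log2 fold change 3.92 ± 0.22, edgeR adjusted p = 0.000462), and Fcgr4, an IgG receptor, at 31.2 and 35.7 CPM against 5.24 and 4.77 CPM (log2 fold change 2.74 ± 0.15). Cybb, the catalytic subunit of the phagocyte oxidase, was at 125 and 155 CPM against 30.3 and 29.8 CPM (2.22 ± 0.12), and Itgam, the CD11b gene, at 678 and 837 CPM against 328 and 273 CPM (log2 fold change 1.33 ± 0.14, edgeR adjusted p = 0.00193). Marco had 47 reads with MM-401 and 0 with iBET, at least 16.1-fold higher against the same floor. The members higher with iBET were Cd86 and the cathepsin genes Ctsb, Ctsd and Ctsl. Csf1r, the receptor for M-CSF, was at 19.7 and 18.2 CPM against 9.75 and 23.004 CPM (edgeR adjusted p = 0.696), with the MM-401 libraries inside the range of the iBET libraries.

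Lysosome genes called were mostly higher with iBET. Lysosomes degrade material taken up or delivered by autophagy, and of 37 tested genes for their hydrolases and membrane proteins 19 were higher with iBET, 2 with MM-401 and 16 were not called, with a median of -0.36. Without iBET replicate 2 the MM-401 count was 5, and the iBET count was 9 in the fit of all 10 libraries. Lamp1, the main membrane glycoprotein, was at 1083 and 1161 CPM with MM-401 and 1957 and 2205 CPM with iBET (log2 fold change -0.89 ± 0.11, edgeR adjusted p = 0.00299), Psap, the sphingolipid activator precursor, at 763 and 677 CPM against 1473 and 2126 CPM (log2 fold change -1.32 ± 0.19), and Hexa, a beta-hexosaminidase subunit, at 497 and 519 CPM against 912 and 1075 CPM (-0.97 ± 0.11). In each of these genes the iBET libraries were also above both DMSO libraries. The exceptions were Arsb (51.2 and 65.6 CPM against 30.2 and 28.0 CPM, log2 fold change 1.01 ± 0.14) and Cd63 (149 and 202 CPM against 87.4 and 109.7 CPM, 0.83 ± 0.17), an arylsulfatase and a tetraspanin, which were higher with MM-401. Plbd2, a lysosomal phospholipase B-like gene outside that list, was at 83.2 and 81.1 CPM against 205 and 212 CPM (log2 fold change -1.34 ± 0.08, edgeR adjusted p = 0.000464).

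The palindrome TCACGTGA, the core bound by TFEB and its relatives at lysosome genes, lay in 4 of 35 promoters of the list and in 0.785% of all promoters; the shorter CACGTG, which it contains, is the E-box searched in the ribosome biogenesis list. Ctsd, cathepsin D, carries the match 99 bases before its start (chr7:142387828-142388077, GRCm38.p6, minus strand, match in capitals) and was at 1262 and 1371 CPM against 2063 and 2036 CPM (log2 fold change -0.64 ± 0.11, edgeR adjusted p = 0.00665).
Ctsd: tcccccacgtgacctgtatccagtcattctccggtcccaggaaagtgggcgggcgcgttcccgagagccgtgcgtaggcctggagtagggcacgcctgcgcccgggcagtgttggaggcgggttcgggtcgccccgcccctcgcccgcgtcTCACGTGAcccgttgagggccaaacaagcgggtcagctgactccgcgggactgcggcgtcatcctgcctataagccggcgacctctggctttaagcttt
The other called member with the match, Mcoln1, a lysosomal calcium channel gene, was at 43.7 and 38.3 CPM against 74.6 and 71.0 CPM (log2 fold change -0.83 ± 0.10).

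Of 17 iron genes 6 (35.3%) were higher with MM-401 and 4 (23.5%) with iBET. Ferritin stores iron, and its chains Ftl1 and Fth1 were at 668 and 683 CPM against 1594 and 2388 CPM and at 357 and 339.7 CPM against 767 and 1047 CPM (log2 fold changes -1.56 ± 0.19 and -1.38 ± 0.16, edgeR adjusted p = 0.00276 and 0.00215), both higher with iBET. Hmox1, which frees iron from heme, was higher with iBET as well (41.7 and 29.4 CPM against 72.8 and 110.4 CPM, log2 fold change -1.37 ± 0.24, edgeR adjusted p = 0.00771). Slc40a1, the iron exporter ferroportin, was higher with MM-401 (39.3 and 78.4 CPM against 15.0 and 17.96 CPM, log2 fold change 1.83 ± 0.32, edgeR adjusted p = 0.00763), as were Ltf and Lcn2 above, and Tfrc, the transferrin receptor, was at 742 and 788 CPM against 589 and 719.7 CPM (edgeR adjusted p = 0.197).

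**Figure D4:**
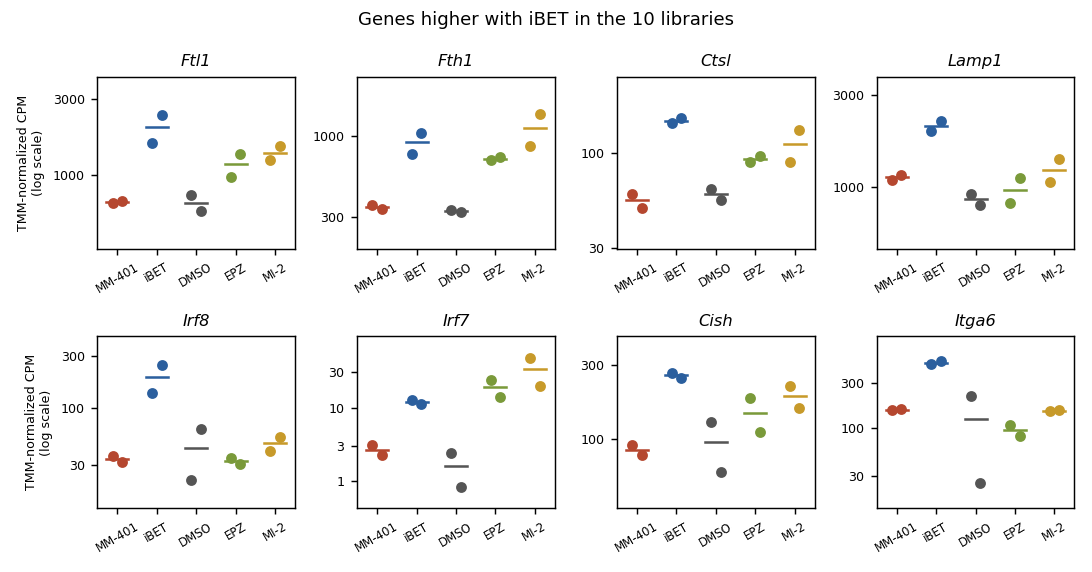
Each panel gives a gene that was higher with iBET in the 10 libraries as TMM-normalized CPM on a log axis, points being libraries and bars the mean of a group. Both iBET libraries lie above both MM-401 libraries in all 8 panels; for Irf7 the EPZ and MI-2 libraries lie above the iBET libraries.

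More interferon response genes were higher with iBET than with MM-401. Type I interferons signal through JAK kinases and IRF9 to a set of antiviral genes, and of 40 tested members 13 were higher with iBET and 2 with MM-401, with 31 of the 40 log2 fold changes below 0. The iBET count was 5 without MM-401 replicate 1, 4 without MM-401 replicate 2 and 20 without iBET replicate 2. Irf7, the factor that amplifies interferon production, was at 3.10 and 2.30 CPM with MM-401 and 12.6 and 11.2 CPM with iBET (log2 fold change -2.14 ± 0.22, edgeR adjusted p = 0.00178). Trim30a and the GTPase gene Gbp7 were at 30.2 and 31.7 CPM against 70.1 and 72.4 CPM and 32.1 and 31.1 CPM against 77.5 and 100.4 CPM (log2 fold changes -1.20 ± 0.09 and -1.49 ± 0.14). The 2 members higher with MM-401 were Ifit2 (8.83 and 10.0 CPM against 1.06 and 1.58 CPM, log2 fold change 2.82 ± 0.27, edgeR adjusted p = 0.00132) and Oas2 (16.5 and 20.9 CPM against 8.87 and 8.39 CPM, log2 fold change 1.12 ± 0.17). The receptor genes Ifnar1 (89.7 and 96.1 CPM against 169 and 184 CPM, log2 fold change -0.93 ± 0.09) and Ifngr1 (535 and 564 CPM against 738 and 714 CPM, -0.40 ± 0.09) were higher with iBET.

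The interferon-stimulated element, read as a pair of GAAA half-sites with any 2 bases between them, on either strand, lay in 20 of 47 promoters of the list (42.6%) and in 2.98% of all promoters. It is shown in capitals for the pair of genes named above, 53 bases before the start of Gbp7 (chr3:142530086-142530335, plus strand) and 36 before that of Trim30a (chr7:104465194-104465443, minus strand), in GRCm38.p6. A further RefSeq start of Trim30a had no match.
Gbp7: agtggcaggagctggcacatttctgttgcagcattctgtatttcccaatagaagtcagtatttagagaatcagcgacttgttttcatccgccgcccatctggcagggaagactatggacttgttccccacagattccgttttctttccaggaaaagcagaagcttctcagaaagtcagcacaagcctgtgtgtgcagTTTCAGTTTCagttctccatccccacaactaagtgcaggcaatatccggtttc
Trim30a: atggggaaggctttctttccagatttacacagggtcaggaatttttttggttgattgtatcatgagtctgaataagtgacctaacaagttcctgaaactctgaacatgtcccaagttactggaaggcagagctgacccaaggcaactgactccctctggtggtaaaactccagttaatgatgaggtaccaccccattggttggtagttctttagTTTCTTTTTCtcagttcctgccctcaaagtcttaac
Members that held the element and were not called included Oas1a (18.8 and 18.6 CPM against 14.4 and 15.4 CPM, edgeR adjusted p = 0.0969) and Bst2 (46.1 and 43.2 CPM against 35.7 and 45.9 CPM, edgeR adjusted p = 0.506), and neither Irf7 nor Ifit2 held it.

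Of 19 antigen presentation genes 8 (42.1%) were higher with iBET and 2 (10.5%) with MM-401, beside 17.6% and 17.4% of all genes. In the fit of all 10 libraries the counts were 2 and 0. B2m, the light chain of class I molecules, was at 299 and 321 CPM against 503 and 575 CPM (log2 fold change -0.80 ± 0.10, edgeR adjusted p = 0.00299), and the immunoproteasome gene Psmb9 at 31.7 and 27.3 CPM against 64.9 and 62.3 CPM (log2 fold change -1.11 ± 0.11). H2-K1, a class I heavy chain gene with close paralogs, was at 426 and 298 CPM against 476 and 372 CPM (edgeR adjusted p = 0.396).

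Cytokine receptors pass growth and maturation signals to JAK kinases and STAT factors. Beside 17.4% and 17.6% of all genes, 8 of 34 receptor genes (23.5%) were higher with MM-401 and 15 (44.1%) with iBET. The latter count was 7 without MM-401 replicate 1. Csf3r, the G-CSF receptor of the neutrophil lineage, was at 63.6 and 71.6 CPM against 24.8 and 23.4 CPM (log2 fold change 1.49 ± 0.11, edgeR adjusted p = 0.000701), Il18rap at 105 and 93.2 CPM against 7.40 and 5.32 CPM (3.97 ± 0.17) and Il21r at 35.1 and 34.8 CPM against 2.02 and 2.68 CPM (3.88 ± 0.18), all higher with MM-401. Csf2rb, the beta chain shared by the IL-3, IL-5 and GM-CSF receptors and so part of the receptor for the cytokine in the medium, was at 367 and 338 CPM against 723 and 509.9 CPM (log2 fold change -0.81 ± 0.17, edgeR adjusted p = 0.0141), and Il17ra at 62.8 and 90.4 CPM against 239.6 and 289 CPM (-1.79 ± 0.19), both higher with iBET. Il3ra, the IL-3 receptor alpha chain, was at 56.8 and 45.1 CPM against 59.1 and 50.1 CPM (edgeR adjusted p = 0.620). Flt3 was at 0.175 and 0.347 CPM against 2.67 and 3.31 CPM (log2 fold change -3.49 ± 0.40, edgeR adjusted p = 0.00219), and had no read in the EPZ and MI-2 libraries. Its MM-401 mean was under 0.436 CPM, so it entered the test through iBET and had to differ. Il7r, a receptor gene higher with MM-401, had 37 reads with MM-401 and 2 with iBET. It entered the test through MM-401 and likewise had to differ.

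SOCS proteins, CISH and the PIM kinases are induced by STAT5 and STAT3 downstream of such receptors. Of 14 tested feedback genes 7 were higher with iBET and none with MM-401. Cish was at 91.1 and 78.7 CPM with MM-401 and 266 and 246 CPM with iBET (log2 fold change -1.59 ± 0.10, edgeR adjusted p = 0.000538), Socs2 at 11.01 and 12.7 CPM against 36.1 and 42.6 CPM (log2 fold change -1.73 ± 0.15), Socs3 at 7.997 and 4.68 CPM against 25.7 and 24.1 CPM (-1.98 ± 0.25) and Pim1 at 369.6 and 343 CPM against 621 and 522 CPM (-0.68 ± 0.11). The count of 7 fell to 4 without MM-401 replicate 1, 3 without MM-401 replicate 2 and 4 without iBET replicate 1, while Cish, Socs2 and Socs3 were each called in all 13 alternatives. Of 21 immediate early genes 5 (23.8%, beside 17.6% of all genes) were higher with iBET, among them Dusp6, an ERK phosphatase, at 101 and 92.9 CPM against 272 and 157 CPM (log2 fold change -1.15 ± 0.24, edgeR adjusted p = 0.0144). That count was 3 without MM-401 replicate 1, 0 without MM-401 replicate 2 and 8 without iBET replicate 2.

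Most sterol and fatty acid synthesis genes tested were higher with MM-401. SREBP factors control these enzymes together, and of 33 tested genes 22 were higher with MM-401 and none with iBET, with a median of 0.70. Fdps, farnesyl diphosphate synthase, was at 133 and 102 CPM with MM-401 and 42.5 and 34.0 CPM with iBET (log2 fold change 1.63 ± 0.16, edgeR adjusted p = 0.00163), and Fasn, fatty acid synthase, at 1232 and 1082 CPM against 835 and 684 CPM (0.61 ± 0.13). Srebf2, which encodes an SREBP factor, was at 396 and 329 CPM against 354 and 293 CPM (edgeR adjusted p = 0.380) and was not called. Scd2 was at 1982 and 1040.1 CPM against 1118 and 414 CPM (edgeR adjusted p = 0.165), where the libraries of the groups overlapped. The count was 10 without MM-401 replicate 1 and 7 in the fit of all 10 libraries. Of 28 RefSeq promoters matched to 23 of the 34 listed genes, 1, that of Hmgcs1, held the sterol element TCACNCCAC on either strand, beside 1.05% of all promoters. Hmgcs1 was listed at 0 reads in all 10 libraries, and whether the counting annotation covered it is not known.

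Ribosome biogenesis genes, which MYC activates, differed by small amounts in 1 direction. All 39 tested had a log2 fold change above 0, 28 were called higher with MM-401 and the median was 0.46. Ncl, nucleolin, was at 1734 and 1966 CPM against 1103 and 1383 CPM (log2 fold change 0.57 ± 0.14, edgeR adjusted p = 0.0253), Nolc1 at 413 and 415 CPM against 243 and 294 CPM (log2 fold change 0.62 ± 0.11) and Mybbp1a at 633 and 654 CPM against 419 and 454 CPM (0.56 ± 0.09). The number called was 14 without MM-401 replicate 1, 5 without MM-401 replicate 2 and 2 in the fit of all 10 libraries. Myc itself was at 374 and 304 CPM against 326 and 264 CPM (log2 fold change 0.20 ± 0.14, edgeR adjusted p = 0.320), with overlapping libraries, against 472 and 416 CPM with DMSO and 189 and 139 CPM with MI-2. Of 11 genes of the MYC and MAX network 1 (9.09%), Mlx, was higher with MM-401 and 1 (9.09%), Mxd3, with iBET. The E-box CACGTG lay in 1 of 38 promoters of the ribosome biogenesis list and in 6.02% of all promoters.

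HEXIM1 holds P-TEFb inactive in the 7SK complex and its gene is a marker of BET inhibitor exposure. Hexim1 was at 124 and 115 CPM with MM-401 and 221 and 210.5 CPM with iBET (log2 fold change -0.86 ± 0.08, edgeR adjusted p = 0.00153), and the iBET libraries were the highest of all 10. Brd2, which encodes a BET protein, was at 380.1 and 395 CPM against 597 and 573 CPM (log2 fold change -0.59 ± 0.09, edgeR adjusted p = 0.00432), again with the iBET libraries highest, while Brd3 (129.6 and 128 CPM against 128 and 119 CPM, edgeR adjusted p = 0.572) was not called. Of the MLL1 complex, Wdr5 was at 191 and 208 CPM against 193 and 197 CPM (edgeR adjusted p = 0.781) and Kmt2a, which encodes MLL1, at 278 and 297 CPM against 299 and 233 CPM (edgeR adjusted p = 0.536), whereas the subunit genes Dpy30 (80.7 and 79.4 CPM against 58.2 and 63.2 CPM, log2 fold change 0.40 ± 0.08) and Ash2l (179 and 189 CPM against 141 and 155 CPM, 0.32 ± 0.09) were slightly higher with MM-401, calls that were lost without either MM-401 library.

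Among 17 genes that the list of BET inhibitor response held, 6 (35.3%) were higher with iBET and 4 (23.5%) with MM-401. The shares of all genes were 17.6% and 17.4%. Il7r, higher with MM-401, had 37 reads with MM-401 and 2 with iBET, so it entered the test through MM-401 and had to differ. Txnip, which restrains glucose uptake, was at 227 and 124 CPM against 580.1 and 319 CPM (log2 fold change -1.36 ± 0.36, edgeR adjusted p = 0.0293). The chemokine receptor genes Ccr2 and Ccr1 were lower with iBET, at 133 and 133 CPM against 68.0 and 79.3 CPM and 57.1 and 49.7 CPM against 29.9 and 27.7 CPM (log2 fold changes 0.85 ± 0.10 and 0.89 ± 0.11). Of 15 genes of P-TEFb, 7SK and the super elongation complex 3 were higher with MM-401 and 2 with iBET. These counts were near the shares of all genes, so they are not read as a result about the list. Aff1 (289.5 and 328 CPM against 242 and 222 CPM, 0.41 ± 0.10) was among the former and Mllt3, which encodes the AF9 partner, among the latter (23.6 and 21.02 CPM against 29.9 and 31.4 CPM, -0.46 ± 0.12). Whether reads of the transduced fusion gene count toward Mllt3 or Kmt2a was not tested. The counts in this list were 0 and 1 without MM-401 replicate 1 and 0 and 1 without MM-401 replicate 2.

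Of 10 replication-independent histone genes tested 6 were higher with iBET and none with MM-401, but 4 without MM-401 replicate 1 and 2 in the fit of all 10 libraries. H1f0, the linker histone of non-dividing and maturing cells, was at 198 and 136 CPM with MM-401 and 672 and 531 CPM with iBET (log2 fold change -1.84 ± 0.20, edgeR adjusted p = 0.00199), H3f3b, which encodes the replacement histone H3.3, at 412 and 429.6 CPM against 705 and 774 CPM (log2 fold change -0.81 ± 0.10, edgeR adjusted p = 0.00227), and H2afy, macroH2A1, at 616 and 631 CPM against 1000.3 and 1066 CPM (log2 fold change -0.73 ± 0.09). Of 66 replication-dependent histone genes, 34 had enough reads to be tested and 4 (11.8%, beside 17.6% of all genes) were higher with iBET. Hist1h2bc, at 5.03 and 4.59 CPM against 32.8 and 30.6 CPM (log2 fold change -2.72 ± 0.14, edgeR adjusted p = 0.000385), and Hist1h1c, at 18.8 and 15.7 CPM against 71.5 and 44.9 CPM (-1.75 ± 0.23), were among them. Replication-dependent histone transcripts lack poly(A) tails and their genes are near copies, so these levels are uncertain.

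**Figure D5:**
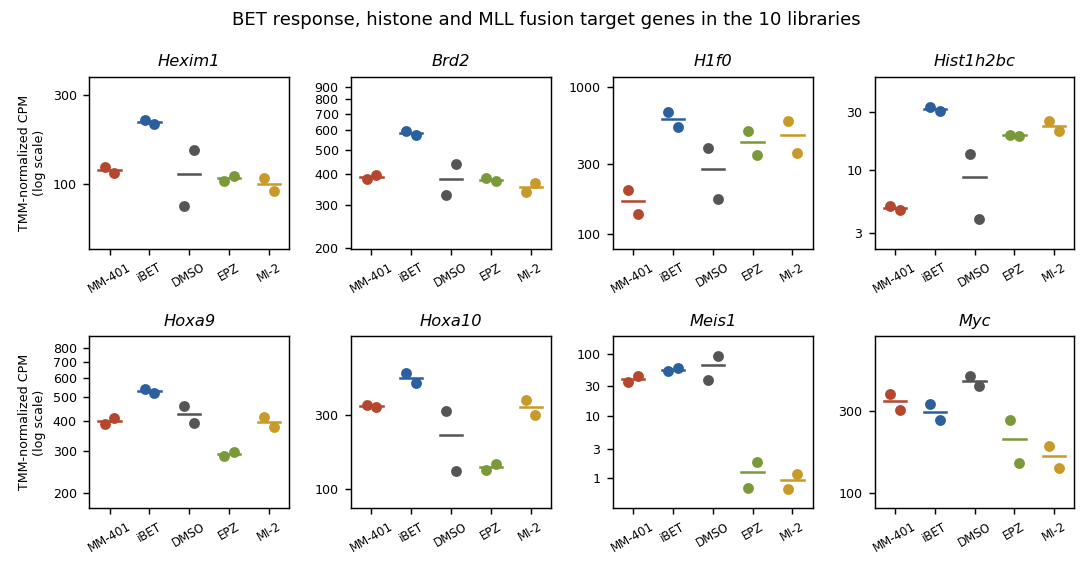
Each panel gives a gene of BET response, histones or MLL fusion targets in the 10 libraries as TMM-normalized CPM on a log axis, points being libraries and bars the mean of a group. Hexim1 and Brd2 are highest in the iBET libraries; for Meis1 the MM-401, iBET and DMSO libraries lie between 35.2 and 92.9 CPM and the EPZ and MI-2 libraries at 1.85 CPM or below.

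The fusion protein maintains the 5′ HOXA genes and MEIS1, which keep the progenitors renewing. Hoxa9 was at 389 and 409 CPM with MM-401 and 540.4 and 520.4 CPM with iBET (log2 fold change -0.41 ± 0.09, edgeR adjusted p = 0.0145), Hoxa10 at 344 and 337 CPM against 552 and 475 CPM (log2 fold change -0.59 ± 0.10, edgeR adjusted p = 0.00767) and Meis1 at 35.2 and 44.6 CPM against 53.02 and 58.4 CPM (log2 fold change -0.48 ± 0.14, edgeR adjusted p = 0.0363), each higher with iBET. Hoxa11 was at 233 and 231 CPM against 265 and 236 CPM (edgeR adjusted p = 0.390). Hoxa7 (32.2 and 36.5 CPM against 21.1 and 27.0 CPM, log2 fold change 0.51 ± 0.15, edgeR adjusted p = 0.0450), Myb (867 and 925 CPM against 584 and 623 CPM, log2 fold change 0.57 ± 0.10, edgeR adjusted p = 0.00702) and Id2 (16.1 and 12.05 CPM against 6.94 and 8.27 CPM, log2 fold change 0.89 ± 0.21) were higher with MM-401, Myb being a factor of immature myeloid cells. In the list of 28 tested targets 3 (10.7%, beside 17.4% of all genes) were higher with MM-401, 7 (25.0%, beside 17.6%) with iBET and 18 were not called. None of the calls held in all 13 alternatives, and the counts in the same order were 1 and 3 without MM-401 replicate 1 and 1 and 4 without MM-401 replicate 2.

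The study's list of genes bound by both MLL1 and MLL-AF9 matched 1347 counted genes, of which 937 were tested, 174 were higher with MM-401 and 210 with iBET, shares of 18.6% and 22.4% beside 17.4% and 17.6% of all genes. The median was -0.04, and the counts were 85 and 99 without MM-401 replicate 1 and 87 and 101 without MM-401 replicate 2. Those with the largest changes that reached 5 CPM were Erg, Olfm4, Bhlha15, Ano4, Gpr84 and Dnajc6 on the MM-401 side and Crim1, Ctnnbip1, Tsc22d1, Chn2, Atrnl1 and Dennd2c on the iBET side. Erg had an iBET mean under 0.436 CPM, as given above. Bhlha15, a secretory cell factor, was at 26.5 and 18.2 CPM against 1.61 and 1.18 CPM (log2 fold change 4.01 ± 0.28, edgeR adjusted p = 0.000636), and Gpr84, a receptor for medium-chain fatty acids, at 41.8 and 58.0 CPM against 3.68 and 3.19 CPM (log2 fold change 3.86 ± 0.21). Tsc22d1 was at 4.98 and 5.46 CPM against 26.3 and 28.2 CPM (log2 fold change -2.38 ± 0.15, edgeR adjusted p = 0.000464) and Atrnl1 at 22.99 and 24.8 CPM against 94.6 and 119 CPM (-2.16 ± 0.13).

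Of other genes named in the study, Zfp385a, a zinc finger gene, was at 5.94 and 6.89 CPM against 12.3 and 13.9 CPM (log2 fold change -1.03 ± 0.18, edgeR adjusted p = 0.00724), Slc16a3, a lactate transporter gene, at 582 and 262 CPM against 268 and 86.5 CPM (edgeR adjusted p = 0.132) and Egr2 at 1.53 and 0.867 CPM against 2.44 and 1.34 CPM (edgeR adjusted p = 0.286). Runx1 (88.4 and 101 CPM against 99.0 and 101 CPM, edgeR adjusted p = 0.516) and Fli1 (158 and 191 CPM against 170.0 and 160.0 CPM, edgeR adjusted p = 0.601) were not called.

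Integrins anchor cells to matrix and to other cells, and semaphorins signal through plexins and neuropilins. Of 31 integrins, selectins and adhesion genes 9 (29.0%) were higher with MM-401 and 10 (32.3%) with iBET, beside 17.4% and 17.6% of all genes. In the fit of all 10 libraries the counts were 4 and 3. The list median was 0.41, and 20 of the 31 log2 fold changes were above 0. Vcam1, given above, had the largest change of the list, higher with MM-401. The laminin receptor chain gene Itga6 had the smallest adjusted p of the genes higher with iBET, at 154 and 159.6 CPM with MM-401 and 491 and 518 CPM with iBET (log2 fold change -1.69 ± 0.09, edgeR adjusted p = 0.000380). Itgb7, the chain of the gut-homing integrin, was at 8.87 and 1.30 CPM against 65.1 and 32.6 CPM (log2 fold change -3.26 ± 0.73, edgeR adjusted p = 0.0175) and Itgb5 at 30.2 and 38.4 CPM against 144 and 200.3 CPM (log2 fold change -2.33 ± 0.19). Nrp1, a co-receptor for semaphorins and VEGF, was at 2.67 and 2.25 CPM against 24.4 and 13.9 CPM (log2 fold change -2.95 ± 0.32, edgeR adjusted p = 0.00192), Plxna3 at 2.58 and 1.43 CPM against 13.9 and 12.5 CPM (-2.71 ± 0.29) and Sema4d at 16.999 and 14.7 CPM against 56.1 and 49.5 CPM (-1.73 ± 0.13), all higher with iBET, while Plxnd1 was higher with MM-401 (257 and 221 CPM against 102 and 85.3 CPM, 1.35 ± 0.12). The semaphorin list had 7 of 16 members (43.8%) higher with MM-401 and 6 (37.5%) with iBET, or 3 and 3 in the fit of all 10 libraries.

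On the iBET side the largest changes, of called genes that reached 5 CPM there, were those of Nkx6-2, a homeobox gene (0.568 and 0.997 CPM against 12.5 and 5.59 CPM, log2 fold change -3.52 ± 0.50, edgeR adjusted p = 0.00401), Slfn5 (2.45 and 2.12 CPM against 21.2 and 23.99 CPM, -3.30 ± 0.18), Itgb7, Slc37a3, Crim1, Nrp1, Tspan13, Ctnnbip1, Itsn1, Zfpm1, Zcchc24 and Saa3. Itsn1, an endocytic scaffold gene, was at 34.7 and 26.3 CPM against 262 and 191 CPM (log2 fold change -2.89 ± 0.20, edgeR adjusted p = 0.000624), and all other 8 libraries were at 34.7 CPM or less. On the MM-401 side the corresponding genes were Mpo, 4933440M02Rik, Vcam1, Stfa1, Gm5483, Prom1, Clec4a2, BC100530, Mgam, Erg, Stfa2l1 and Clec12a. Of these, 4933440M02Rik and Erg had iBET means under 0.436 CPM and so had to differ. Prom1, which encodes the progenitor marker CD133, was at 65.1 and 77.1 CPM against 1.43 and 0.827 CPM (log2 fold change 6.00 ± 0.23, edgeR adjusted p = 0.000182), and Clec12a, an inhibitory lectin receptor of granulocytes and monocytes, at 100.4 and 149 CPM against 2.48 and 2.44 CPM (5.66 ± 0.24). For 4933440M02Rik, an uncharacterized gene with 270 reads with MM-401 and 3 with iBET, the ratio of levels was 92.3 with a 95% exact binomial interval of 31.3 to 450.4, which covers counting error only.

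Proliferation genes were called at shares near that over all genes for MM-401 and below it for iBET. Of 40 DNA replication genes 6 were higher with MM-401 and none with iBET, and of 36 mitosis genes 6 were higher with MM-401 and 1 with iBET. The shares for MM-401 were 15.0% and 16.7% beside the background of 17.4%, and those for iBET 0.00% and 2.78% beside 17.6%. Without MM-401 replicate 1 the counts higher with MM-401 were 0 and 1, and without MM-401 replicate 2 they were 0 and 1. Mki67, the proliferation antigen, was at 996 and 1039 CPM against 1134 and 917 CPM (edgeR adjusted p = 0.957) and Top2a at 823 and 807 CPM against 921 and 830.1 CPM (edgeR adjusted p = 0.456). Plk1, the mitotic kinase, was slightly higher with MM-401 (125 and 127 CPM against 94.7 and 81.8 CPM, log2 fold change 0.52 ± 0.10, edgeR adjusted p = 0.00959). Cdkn2c, which encodes the CDK inhibitor p18, was higher with iBET (76.7 and 95.2 CPM against 149.9 and 154 CPM, log2 fold change -0.82 ± 0.12, edgeR adjusted p = 0.00396), and Cdk6 was at 339 and 362 CPM against 409 and 356 CPM (edgeR adjusted p = 0.368) with both groups above the 66.8 and 66.7 CPM of EPZ.

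Of 17 BCL2 family genes, which set the threshold for mitochondrial apoptosis, 6 (35.3%) were higher with MM-401, beside 17.4% of all genes. The 3 higher with iBET made 17.6% of the list, the same share as over all genes. The BH3-only genes Bcl2l11, which encodes BIM, and Bmf were higher with iBET, at 26.4 and 29.4 CPM against 59.6 and 63.0 CPM and 10.7 and 7.93 CPM against 27.0 and 21.2 CPM (log2 fold changes -1.14 ± 0.10 and -1.37 ± 0.20, edgeR adjusted p = 0.00126 and 0.00458). Bcl2a1a and Bcl2a1b, near copies that encode the anti-apoptotic A1 and whose reads may be shared, were higher with MM-401 (4.50 and 4.42 CPM against 0.644 and 0.512 CPM and 1.398 and 1.99 CPM against 0.138 and 0.276 CPM, log2 fold changes 2.94 ± 0.29 and 2.98 ± 0.46). Bcl2a1b had an iBET mean under 0.436 CPM, so it entered the test through MM-401 and had to differ. The pore-forming effectors Bax and Bak1 were higher with MM-401 as well, at 185 and 206 CPM against 129 and 149 CPM and 210.5 and 216 CPM against 149 and 155 CPM (0.50 ± 0.11 and 0.49 ± 0.08), and Mcl1 was at 321 and 286 CPM against 376 and 339 CPM (edgeR adjusted p = 0.117).

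Many markers of cells other than neutrophils and macrophages were listed at 0 reads, and whether the annotation used for counting covered each of them is not known. Of 25 mast cell and basophil genes, 11 were at 0 in the 4 libraries, the mast cell proteases Mcpt4, Cma1, Tpsb2 and Tpsab1 and the receptor chain Fcer1a among them, and 11 were tested, of which 5 were higher with MM-401; the sum of the list, most of it Srgn, ran from 1613 to 1777 CPM with MM-401 and from 621 to 643 CPM with iBET. Eosinophil genes had 1 tested member of 12, Siglec5, at 9.18 and 10.8 CPM against 0.920 and 0.867 CPM (log2 fold change 3.48 ± 0.24, edgeR adjusted p = 0.000627), and 4 at 0, Il5ra and Ear1 among them. Of 17 erythroid genes 8 were at 0, the globin genes included, and 4 were tested with no call. Pax5 and Ms4a1 of the B lymphoid list and Cd3e and Cd8a of the T and NK list were at 0. Of 4 tested B lymphoid genes 3 were higher with MM-401 and none with iBET, Cd79b (4.24 and 2.82 CPM against 0.138 and 0.118 CPM, log2 fold change 4.73 ± 0.44, edgeR adjusted p = 0.00129) among them. Cd79b and Il7r of the B lymphoid list and Nkg7 of the T and NK list had iBET means under 0.436 CPM. Il7r had 37 reads with MM-401 and 2 with iBET, and Nkg7 had 143 and 3. Thy1 of the T and NK list had an MM-401 mean under 0.436 CPM. Each of these genes therefore entered the test through the other group and had to differ. Of 4 tested T and NK genes 3 were higher with MM-401, Bcl11b (8.08 and 7.41 CPM against 2.99 and 2.13 CPM, edgeR adjusted p = 0.00510) among them, and Thy1 was higher with iBET (0.350 and 0.217 CPM against 3.03 and 1.18 CPM, edgeR adjusted p = 0.0148), a call that was lost when either MM-401 library was left out and in the fit of all 10 libraries. Sums of the dendritic cell list, to which Irf8 gave most in the iBET libraries, ran from 119 to 133 CPM with MM-401 and from 217 to 347 CPM with iBET, with Siglech and Cd209a at 0. The part of such cells in the differences above was not tested.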

How the data were processed

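RNA-seq libraries of MAF9 cells treated for 4 days with DMSO, MM-401, EPZ, MI-2 or iBET were used as deposited, 2 per condition, as whole-number read counts per gene that the authors had made and not normalized. The submitters' processing notes name TopHat2, Subread, DESeq and the mouse build mm9, with no versions. Strand and the handling of shared reads were not given in the sources used here, so near copies and overlapping genes are uncertain. Deposited columns were matched to samples by title.

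The 4 MM-401 and iBET libraries were compared in edgeR 4.0.16 (R 4.3.3; filterByExpr, TMM, quasi-likelihood F test, Benjamini-Hochberg over all 12064 genes tested, threshold 0.05), with 13 alternatives that included DESeq2 1.42.0. Standard errors were derived from the F statistic (absolute log2 fold change over root F). Code was tested on simulated data. The 4 totals of 21875517 to 25401181 reads give the precision. A change past 2-fold was also counted without a test, with 0.1 CPM added and a minimum of 1 CPM in the higher group. Intervals and floors cover counting error only.

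Named genes are the 12 largest changes in each direction that reach 5 CPM in either group, the 5 smallest adjusted p in each direction, up to 4 called members per direction and the 2 most counted members of each of 43 lists, genes named in the study's text, the inhibitors' targets and 6 joint targets in each direction. Other list members were named after their values were seen. Members and lists were chosen with earlier results of these data known. Promoters are from RefSeq (GRCm38.p6), matched by symbol. Results for some genes are not reported here.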

Additional observations from a re-analysis of the deposited data

How the results depend on the processing

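The number of genes called, 4223, was 4249 with total-count scaling, 4218 with DESeq2 size factors, 4081 with DESeq2's own test, 3572 without a filter on low counts and 4025 with a minimum of 1 CPM. It was 3232 when the 8 inhibitor libraries shared the estimate of the spread and 1484 when all 10 did, and ran from 1942 to 3852 when 1 library was left out, the lone library being taken to vary like the other group. The share of calls higher with MM-401, 49.8%, was 58.5% with 8 libraries and 52.1% with 10. 1048 genes were called in all 13 alternatives. Of the 11413 genes at 1 CPM or more, 1450 were past 2-fold, 948 with a minimum of 5 CPM, 2135 with none, and from 1464 to 1512 with 1 library left out. Of 281 named genes 227 were called, 110 of them in every alternative. No called gene of these changed direction, and 24 uncalled ones did.

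Replicate numbers are shared between groups, but nothing says that a number marks a shared culture or batch. Deviations of same-numbered libraries from their group means correlated across genes with r = 0.345. With the number as a block 5589 genes were called in the 4 libraries and 5191 in the 8 inhibitor libraries. In the 4 libraries the block gave 13 glycolysis genes and 15 DNA replication genes higher with MM-401, in place of 6 and 6.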

Other observations

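Of 23 glycolysis genes 6 (26.1%, beside 17.4% of all genes) were higher with MM-401 and none with iBET (edgeR), with Slc2a3, a glucose transporter gene, at 93.0 and 83.4 CPM with MM-401 and 10.3 and 3.15 CPM with iBET (log2 fold change 3.73 ± 0.45, edgeR adjusted p = 0.00251). The glycolysis count was 2 without MM-401 replicate 1. Of 39 oxidative phosphorylation genes 4 (10.3%) were higher with MM-401 and 2 (5.13%) with iBET, with a median of 0.03. Of 29 ATF4 and amino acid stress genes 4 (13.8%) and 2 (6.90%) were called in the same order, Slc7a11, the cystine transporter, at 31.3 and 18.9 CPM against 10.1 and 9.69 CPM (log2 fold change 1.35 ± 0.25, edgeR adjusted p = 0.00934) and Chac1, a glutathione-degrading enzyme gene, at 21.6 and 12.6 CPM against 41.6 and 28.6 CPM (log2 fold change -1.04 ± 0.29).

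Trp53 was higher with MM-401, at 135 and 159.9 CPM against 96.2 and 105 CPM (log2 fold change 0.55 ± 0.11, edgeR adjusted p = 0.0111), while its target Cdkn1a was at 199 and 174 CPM against 196 and 149 CPM (edgeR adjusted p = 0.572) and Mdm2 at 117 and 136 CPM against 119 and 106 CPM (edgeR adjusted p = 0.259). The p53 list had 7 of 26 members (26.9%) higher with MM-401 and 3 (11.5%) with iBET, beside 17.4% and 17.6% of all genes. In the fit of all 10 libraries the counts were 1 and 2. Among 25 nuclear receptor genes 6 were higher with iBET, or 3 without MM-401 replicate 2. They included Rara, the retinoic acid receptor alpha gene, at 33.6 and 22.9 CPM against 100.2 and 96.9 CPM (log2 fold change -1.80 ± 0.17, edgeR adjusted p = 0.00143), and Rora at 4.37 and 2.34 CPM against 10.6 and 7.17 CPM (log2 fold change -1.40 ± 0.35). Abcg1, a cholesterol exporter and target of the LXR receptors, was higher with iBET (20.01 and 13.6 CPM against 64.6 and 45.8 CPM, log2 fold change -1.71 ± 0.24, edgeR adjusted p = 0.00366), and 2 of 10 members of that list were higher with MM-401 and 2 with iBET. Of 14 chemokine and receptor genes 7 were higher with MM-401 and 2 with iBET, beside 17.4% and 17.6% of all genes. Cxcl12, higher with iBET, had 2 reads with MM-401 and 31 with iBET, so it entered the test through iBET and had to differ. Ccl6, at 105 and 62.3 CPM against 24.3 and 13.3 CPM (log2 fold change 2.16 ± 0.34, edgeR adjusted p = 0.00566), and Ccl3, at 26.8 and 12.05 CPM against 43.0 and 49.2 CPM (log2 fold change -1.25 ± 0.34), had changes in opposite directions. The MM-401 count was 4 without MM-401 replicate 1 and 3 without MM-401 replicate 2. In the megakaryocyte list 4 of 8 tested members were higher with MM-401, Vwf at 5.51 and 4.59 CPM against 0.322 and 0.670 CPM (log2 fold change 3.31 ± 0.37) among them, and 1, Itgb3, with iBET, with Gp6 at 0.

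Summed over the sterol synthesis list, levels of replicates 1 and 2 were 7914 and 5941 CPM with MM-401, 5402 and 3915 CPM with iBET, 6169.7 and 5127 CPM with EPZ, 6555 and 4855 CPM with MI-2 and 6388 and 10129 CPM with DMSO. In all 4 inhibitor groups the library numbered 1 was the higher, and in DMSO the lower. What the number stands for is not given in the labels.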
